A study of Homo sapiens with 58 samples.

Results

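The net change of gene expression over a presomitic mesoderm time course was examined by setting its last time points against its first. Expression had been measured by RNA-seq in H1, an established wild-type human embryonic stem cell line (passages p30 to p40), along a time course with libraries every 30 min from 30 to 690 min. The comparison took 12 of the 46 course libraries by their labelled times: 6 libraries of 630, 660 and 690 min, 2 at each time, and 6 libraries of 30, 60 and 90 min, 2 at each time. The whole series had 58 libraries, and the others were a daily series of 12, with 3 on each of 4 days. Both windows came from the same line and genotype under the same cell type label, and differed in the labels by time alone. Medium and zero point of the course are not in the labels, which describe media for the daily steps: a day in activin A and the Wnt activator CHIR99021, then a presomitic medium with CHIR99021 (3 µM), the growth factor FGF2 (100 ng/mL), NOGGIN, which blocks BMP (100 ng/mL), and A83-01, which blocks activin and nodal receptors (2 µM), then a somite medium with PD0325901, which blocks MEK (1 µM), IWR1, which blocks Wnt (2.5 µM), and again A83-01 and NOGGIN. Replicates are not stated to be separate cultures, so p-values reflect only how these libraries vary, and that variation may be technical. The spread among the 6 libraries of a window also holds any change between its 3 time points.

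The presomitic mesoderm is the unsegmented tissue beside the neural tube of the embryo. Its cells are held immature by Wnt and FGF signals from the tail end, and oscillate through the segmentation clock, a loop of Notch signalling and HES-type repressors. As they leave these signals, a border is set by MESP2 and ended by RIPPLY proteins, and epithelial blocks, the somites, form and switch on MEOX1 and TCF15. Somites later give rise to vertebrae, dermis and skeletal muscle. The comparison asks how far these genes moved, as a net change, within the course.

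Total expected counts were 2.84 to 8.96 M per library at 630-690 min (median 4.08 M) and 3.28 to 6.42 M at 30-90 min (median 4.1 M). Levels are given as CPM, counts relative to the total of each library, scaled over the 12 libraries; values that follow the course and summed levels of lists were scaled over all 46 course libraries and can differ slightly from these. Where a gene had no count, up to 3 counts were still possible by counting error alone, equal to 0.335 to 1.06 CPM in libraries at 630-690 min and 0.468 to 0.915 CPM in those at 30-90 min. Across genes, libraries of 1 window correlated at r of at least 0.926 at 630-690 min and 0.955 at 30-90 min, on log2 CPM, and no pair of libraries from different windows exceeded 0.903. The library of 630 min replicate 1 stood apart, with 29 genes at least 4-fold away from the other libraries of its window, against 5 to 19 in the other libraries. Its leading genes were read-through and near-identical loci such as FAM21A, NPIPL3 and PTCD1, none of which was called. Some called genes also lay apart in it: CRB2, HVCN1 and PTP4A3, called lower, and PGA5, called higher. Counts of called list members without it are given where they differ.

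Of 11414 genes tested, 1110 were called between 630-690 and 30-90 min, which is 9.72% of all. A call needed an adjusted p under 0.05 and at least a 2-fold change. Genes called higher at 630-690 min numbered 582 (5.1%), and genes called lower numbered 528 (4.63%). These shares of all genes tested are the background for all counts of called list members below. At any fold, 3289 genes (28.8%) passed the adjusted p, and for 1784 genes (15.6%) the 6 libraries of one window did not overlap the 6 of the other. The median log2 difference over all genes tested was -0.003. Without 630 min replicate 1, 1200 genes were called, of which 1055 were among the 1110. All values come from bulk RNA, in which fewer cells of a type and less RNA per cell cannot be told apart.

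**Figure D1:**
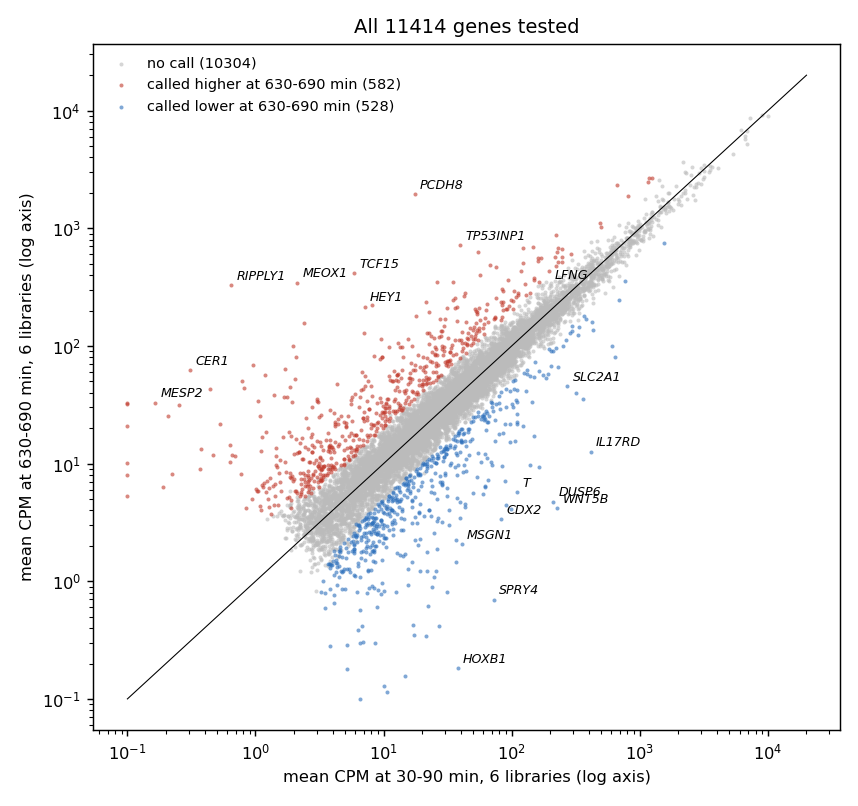
Mean CPM of each gene tested at 630-690 min (vertical, log axis) against 30-90 min (horizontal, log axis), 6 libraries each; red marks the 582 genes called higher and blue the 528 called lower, and means under 0.1 are drawn at 0.1. Most genes lie along the line of equal level, with MEOX1, PCDH8 and RIPPLY1 far above it and HOXB1, SPRY4 and DUSP6 far below.

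Most somite genes rose, MEOX1 and TCF15 from a few CPM at 30-90 min. MEOX1, a homeobox factor of the somite, had 300 CPM at the lowest, 349 at the median and 378 at the highest of the libraries at 630-690 min, against 1.25, 1.93 and 3.56 CPM at 30-90 min. TCF15, a helix-loop-helix factor needed in mouse for somites to become epithelial, had 327, 386 and 583 CPM at 630-690 min, against 3.78, 5.1 and 10.8 CPM at 30-90 min. PCDH8, a protocadherin of forming somites, had 1591, 2008 and 2117 CPM at 630-690 min, against 13, 15.2 and 28.3 CPM at 30-90 min. No library of 30-90 min came near any library of 630-690 min for these genes. The log2 differences were 7.32 ± 0.17 for MEOX1 (SE; adjusted p = 2.91e-21), 6.19 ± 0.19 for TCF15 (adjusted p = 4.33e-18) and 6.83 ± 0.14 for PCDH8 (adjusted p = 9.67e-21), by edgeR's quasi-likelihood test with Benjamini-Hochberg adjustment over all genes tested.

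On a scale that allows for transcript length, PCDH8 was the most abundant of these at 630-690 min. It averaged 1136 ± 130 TPM at 630-690 min and 9.80 ± 2.98 TPM at 30-90 min (SD, n = 6 each). TCF15 averaged 740 ± 108 TPM at 630-690 min and 10.2 ± 4.22 TPM at 30-90 min. MEOX1 averaged 342 ± 30.2 TPM at 630-690 min and 2.09 ± 0.827 TPM at 30-90 min.

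Of 19 somite genes listed, 12 were tested, 9 were called higher and 1 lower, with a median log2 difference of 3.59 beside -0.003 over all genes. EYA1, a phosphatase and transcriptional coactivator of early muscle and organ primordia, had 42.3 to 62.8 CPM at 630-690 min and 0 to 4.06 CPM at 30-90 min (log2 difference 4.81 ± 0.44). PAX3, the factor of the somite part that gives muscle, had 15, 20.9 and 32 CPM at 630-690 min, against 1.83, 4.17 and 7.37 CPM at 30-90 min (lowest, median and highest), with no overlap and a log2 difference of 2.33 ± 0.28 (adjusted p = 5.56e-07). CDH11, a cadherin of mesenchyme, went the other way and fell to 137 ± 36.1 CPM at 630-690 min, against 434 ± 30.8 CPM at 30-90 min (log2 difference -1.66 ± 0.13). ALDH1A2, which makes retinoic acid and is known from forming somites, had 184 ± 32.8 CPM at 630-690 min and 293 ± 27.3 CPM at 30-90 min, and its log2 difference of -0.67 ± 0.11 was under the 2-fold limit. In the list of later somite parts, SOX9 was called higher and DES, the muscle filament gene desmin, was not called (log2 difference -0.21, adjusted p = 0.525). The other 7 did not pass the count filter: NKX3-2 had 40 counts in all at 630-690 min and 13 at 30-90 min, MYF6 had 23 and 49 in that order, PAX9 had 4 and 6, PAX1 had 0 and 1, and MYF5, MYOD1 and MYOG had none in either window. Between the windows PAX9 was higher, though still low, at 2.27 ± 1.79 CPM at 300-420 min (SD, n = 10).

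Several genes that set and end the segment border also rose. MESP2, a helix-loop-helix factor at the border, had 23.4, 34.9 and 39.3 CPM at 630-690 min, against 0, 0.0762 and 0.614 CPM at 30-90 min. RIPPLY1 and RIPPLY2, corepressors that act against T-box factors, followed. RIPPLY1 had 286, 326 and 415 CPM at 630-690 min, against 0, 0.670 and 1.01 CPM at 30-90 min. RIPPLY2 had 47.7, 72.3 and 83.4 CPM at 630-690 min, against 0, 0.528 and 2.53 CPM at 30-90 min. In each of these genes every library at 630-690 min lay above every library at 30-90 min. The log2 differences were 7.49 ± 0.34, 8.84 ± 0.23 and 6.22 ± 0.36 in that order. At 30-90 min MESP2 had 4 counts in all, RIPPLY1 18 and RIPPLY2 23. With so few counts these SEs leave out part of the counting error, so the folds are less certain than the SEs show. FOXC2, a forkhead factor of paraxial mesoderm that acts in mouse with FOXC1 in somite formation, had 39.5 to 60.2 CPM at 630-690 min and 0.152 to 1.56 CPM at 30-90 min. Of 10 segment border genes tested, 6 were called higher and 2 lower. The lower ones were SNAI1, a repressor of epithelial genes (1.47 ± 0.911 CPM at 630-690 min, 36.7 ± 23.2 CPM at 30-90 min), and PAPSS2, an enzyme of sulfate activation. LFNG, the glycosyltransferase that modifies Notch, had 244 to 425 CPM at 630-690 min and 159 to 231 CPM at 30-90 min, without overlap, and its log2 difference of 0.75 ± 0.12 was under the 2-fold limit. EPHA4, a receptor at the border, had 111 ± 17.6 CPM at 630-690 min and 100 ± 5.89 CPM at 30-90 min (adjusted p = 0.327).

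The MESP2 promoter is shown because Mesp2 is switched on in mouse by the T-box factor Tbx6. Between the end windows MESP2 rose and TBX6 fell, but at different times. MESP2 was past the midpoint of its change from 180 min and TBX6 from 480 min. The sequence is 250 bases before the start site from RefSeq (GRCh38.p14), 5′ to 3′, and capitals mark matches to AGGTGT, a T-box motif, on either strand.
MESP2 promoter, chr15:89776082-89776331, + strand: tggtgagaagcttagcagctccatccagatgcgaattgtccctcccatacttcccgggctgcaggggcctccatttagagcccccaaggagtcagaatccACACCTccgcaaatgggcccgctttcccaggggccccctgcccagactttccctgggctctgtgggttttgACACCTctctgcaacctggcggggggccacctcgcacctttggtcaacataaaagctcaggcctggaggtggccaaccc
The matches, both on the reverse strand, begin at -150 and -79 from the start site. They overlap no match to the other motifs searched. Of the 9474 tested genes with a promoter in that table, 7.34% held AGGTGT on either strand in the same length.

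**Figure D2:**
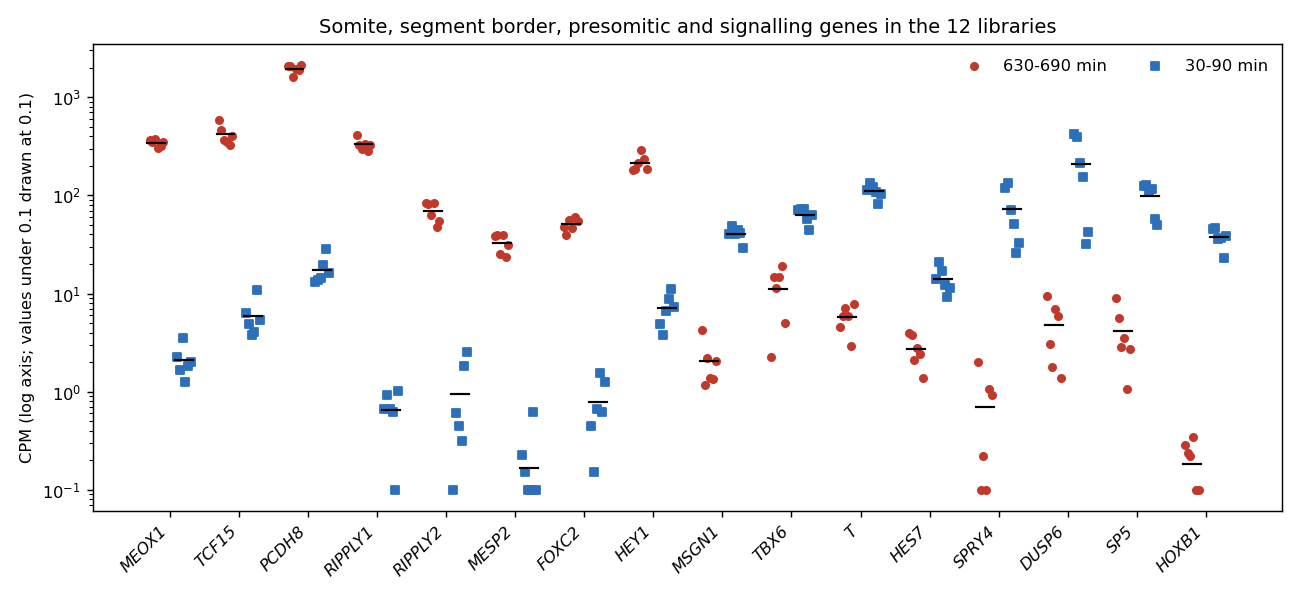
CPM of 16 genes (log axis) in each of the 6 libraries at 630-690 min (circles, left) and the 6 at 30-90 min (squares, right); values under 0.1 are drawn at 0.1. The windows are apart in all 16 genes, beside 15.6% of all genes tested, but several of the 16 were named by a rule that required this. MEOX1 lies at 300 to 378 CPM against 1.25 to 3.56 CPM and HOXB1 at 0 to 0.348 CPM against 22.7 to 46.7 CPM.

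Most presomitic genes fell. Of 18 in the table, 15 were tested, 13 were called lower and 1 higher, with a median log2 difference of -2.97. MSGN1, a helix-loop-helix factor of the presomitic mesoderm, had 1.18, 1.72 and 4.25 CPM at 630-690 min, against 29.1, 41.0 and 48.5 CPM at 30-90 min. The gene T, or brachyury, a T-box factor of the primitive streak and tail bud, had 2.93, 5.90 and 7.77 CPM at 630-690 min, against 81.1, 111 and 135 CPM at 30-90 min. TBX6, the T-box factor that keeps mouse cells on the paraxial path, had 2.27, 12.9 and 19.2 CPM at 630-690 min, against 44.5, 67.3 and 73.0 CPM at 30-90 min. The windows did not overlap for any of these. Their log2 differences were -4.27 ± 0.26, -4.23 ± 0.19 and -2.52 ± 0.33. The lowest TBX6 value, 2.27 CPM, came from 630 min replicate 1, and the other 5 libraries had 5.03 to 19.2 CPM. RSPO3, a secreted enhancer of Wnt signalling, fell to 81.2 ± 15.1 CPM at 630-690 min, against 638 ± 67.6 CPM at 30-90 min. CDX1 and CDX2, homeobox factors of the tail end, fell with log2 differences of -3.92 ± 0.21 and -4.60 ± 0.30. The exceptions were 2 Notch ligands of the presomitic mesoderm: DLL1 rose to 350 ± 30.3 CPM at 630-690 min, against 165 ± 50.8 CPM at 30-90 min, and DLL3 had 353 ± 31.0 CPM at 630-690 min and 298 ± 29.5 CPM at 30-90 min, which was not called. Without 630 min replicate 1, 12 presomitic genes were called lower.

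HES7, the clock repressor in the title of the series, had 1.37, 2.59 and 3.97 CPM at 630-690 min, against 9.22, 13.0 and 20.7 CPM at 30-90 min. All libraries at 630-690 min lay below all at 30-90 min, with a log2 difference of -2.39 ± 0.30 (adjusted p = 1.23e-06). Between the windows, single libraries had 5.63 to 20.3 CPM from 120 to 390 min and 0 to 3.99 CPM from 510 to 600 min. Other Notch genes did not follow it. Of 16 tested, 5 were called higher and only HES7 lower. HEY1, a Notch-responsive repressor, had 180, 201 and 288 CPM at 630-690 min, against 3.81, 7.01 and 11.1 CPM at 30-90 min (log2 difference 4.98 ± 0.19). NRARP, a feedback inhibitor of Notch, rose to 114 ± 14.1 CPM at 630-690 min, against 15.6 ± 3.33 CPM at 30-90 min. The ligand JAG1 rose to 283 ± 31.6 CPM at 630-690 min, against 43.4 ± 5.53 CPM at 30-90 min, and the receptor NOTCH2 rose to 210 ± 56.4 CPM at 630-690 min, against 55.5 ± 7.66 CPM at 30-90 min. NOTCH1 had a log2 difference of 0.77 ± 0.10, under the 2-fold limit, and HES1 one of 0.23 ± 0.34 (adjusted p = 0.692).

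Some targets of FGF and the kinase ERK were among the steepest falls. SPRY4, an inhibitor of receptor kinase signalling, had 0, 0.568 and 1.99 CPM at 630-690 min, against 25.8, 61.1 and 133 CPM at 30-90 min (log2 difference -6.81 ± 0.44). DUSP6, the phosphatase of ERK, had 1.37, 4.46 and 9.36 CPM at 630-690 min, against 31.9, 183 and 422 CPM at 30-90 min (log2 difference -5.64 ± 0.51). The wide range at 30-90 min followed time: DUSP6 had 422 and 393 CPM at 30 min, 213 and 153 CPM at 60 min, and 31.9 and 42.8 CPM at 90 min. IL17RD, another feedback inhibitor of FGF receptors, differed less within a window and had 10.1 to 16.9 CPM at 630-690 min and 355 to 467 CPM at 30-90 min (log2 difference -5.05 ± 0.13). Of 15 targets tested, 9 were called lower (10 without 630 min replicate 1) and 2 higher, with a median log2 difference of -2.57. ETV4 and ETV5, transcription factors induced by FGF, fell to 10.3 ± 3.09 and 7.64 ± 2.56 CPM at 630-690 min, against 69.2 ± 12.0 and 53.6 ± 6.92 CPM at 30-90 min. The members called higher were DUSP5, a nuclear ERK phosphatase (166 ± 39.5 CPM at 630-690 min, 56.9 ± 11.0 CPM at 30-90 min), and SPRY1 (57.7 ± 12.7 CPM at 630-690 min, 13.0 ± 4.15 CPM at 30-90 min). EGR1, an ERK-induced factor, did not pass the count filter, with 13 counts in all at 630-690 min and 465 at 30-90 min.

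FGF ligands and receptors did not move as one. Of 10 tested, 5 were called higher and 2 lower. The ligand FGF18 had 28.8 to 45.9 CPM at 630-690 min and 0.668 to 2.19 CPM at 30-90 min (log2 difference 4.79 ± 0.26). FGF4 had 9.60 to 18.6 CPM at 630-690 min and 0.673 to 2.77 CPM at 30-90 min. The receptors FGFR2 and FGFR3 rose with log2 differences of 1.68 ± 0.27 and 1.44 ± 0.19. The ligands FGF9 and FGF17 fell by 1.40 and 1.03 on the log2 scale. Without 630 min replicate 1, 1 of the 10 was called lower.

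Most Wnt targets fell as well. Of 15 tested, 9 were called lower and 1 higher, with a median log2 difference of -1.96. SP5, a repressor induced by Wnt, had 1.06, 3.18 and 9.08 CPM at 630-690 min, against 50.4, 113 and 129 CPM at 30-90 min (log2 difference -4.61 ± 0.32). NKD1, another antagonist of the pathway, fell to 7.13 ± 2.55 CPM at 630-690 min, against 88.3 ± 4.89 CPM at 30-90 min, and the transcription factor TCF7 fell to 8.48 ± 1.00 CPM at 630-690 min, against 41.7 ± 4.37 CPM at 30-90 min. AXIN2, a feedback inhibitor, overlapped between windows, with 56.9 ± 13.9 CPM at 630-690 min and 74.0 ± 11.7 CPM at 30-90 min; its log2 difference of -0.38 ± 0.15 passed the adjusted p at 0.0498 but not the 2-fold limit. LEF1, a partner of β-catenin, had a log2 difference of 0.04 (adjusted p = 0.85). Of 6 ligands and R-spondins tested, 4 were called lower and 1 higher. WNT5B fell to 4.18 ± 2.55 CPM at 630-690 min, against 226 ± 35.1 CPM at 30-90 min (log2 difference -5.79 ± 0.33). WNT3A, the Wnt of the tail bud, fell to 5.74 ± 1.76 CPM at 630-690 min, against 23.6 ± 6.30 CPM at 30-90 min. WNT8A went the other way, with 130 to 208 CPM at 630-690 min and 23.7 to 35.9 CPM at 30-90 min.

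The promoters of SP5 and MSGN1 are shown as genes that Wnt is known to induce and that fell here. Source and orientation are as for MESP2, and capitals mark matches to CTTTGA, a TCF/LEF motif, on either strand.
SP5 promoter, chr2:170715087-170715336, + strand: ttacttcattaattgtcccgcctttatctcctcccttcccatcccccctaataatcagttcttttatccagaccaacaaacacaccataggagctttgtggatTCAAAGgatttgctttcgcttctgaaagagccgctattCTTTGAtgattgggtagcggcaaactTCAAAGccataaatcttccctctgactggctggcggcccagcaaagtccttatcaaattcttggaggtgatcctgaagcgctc
MSGN1 promoter, chr2:17816210-17816459, + strand: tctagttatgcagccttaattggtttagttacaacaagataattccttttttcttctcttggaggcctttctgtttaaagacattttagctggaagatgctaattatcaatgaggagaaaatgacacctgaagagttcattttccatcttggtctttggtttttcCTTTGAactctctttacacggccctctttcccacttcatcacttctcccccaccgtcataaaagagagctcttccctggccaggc
SP5 held 3 matches, at -147, -109 and -83 from the start site, and MSGN1 held 1, at -85. Those at -147 and -83 in SP5 and the 1 in MSGN1 overlap a match to TTTGAA, the cell cycle motif CHR. The motif was present in 7.06% of the promoters of tested genes. No share is given for the called genes, because only 75.9% of the higher and 77.7% of the lower ones had a promoter in the table.

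**Figure D3:**
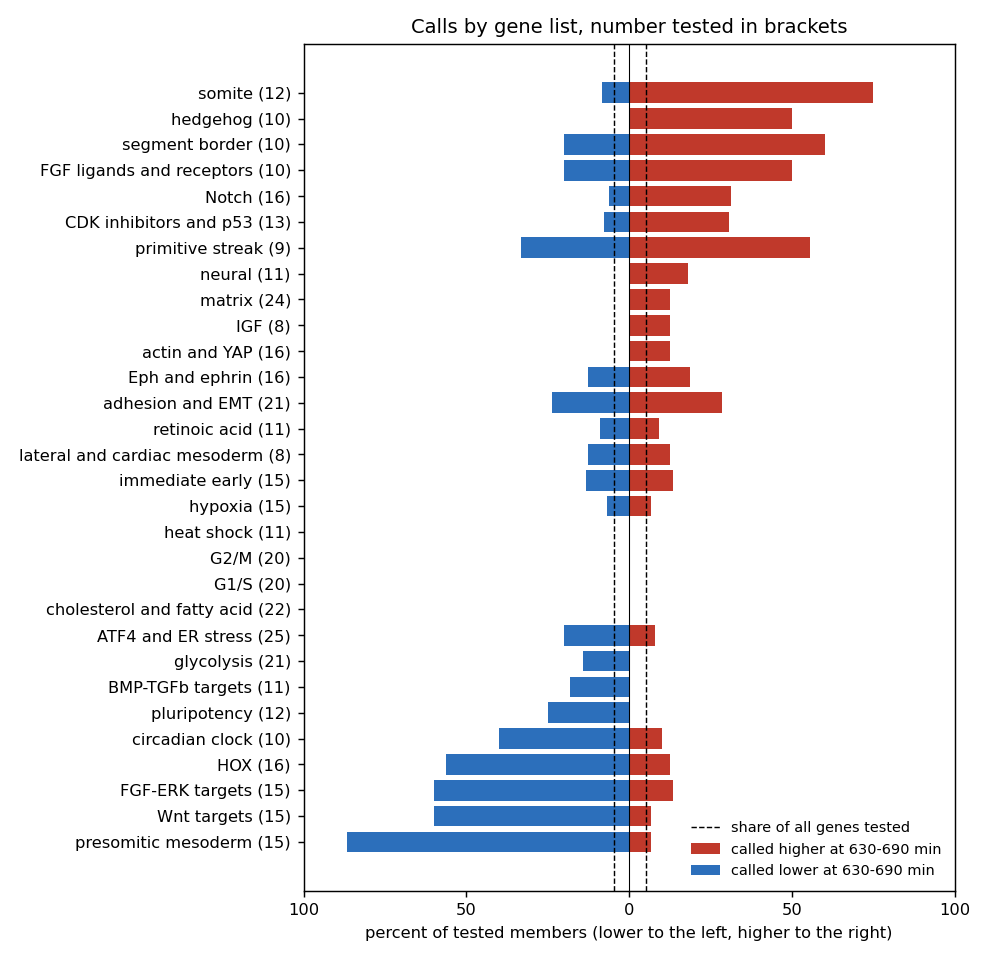
Percent of tested members called higher (right) or lower (left) at 630-690 min, for each gene list with at least 8 members tested; dashed lines mark 5.1% and 4.63%, the shares of all genes tested. Somite genes (9 of 12 higher) and presomitic genes (13 of 15 lower) lie at opposite ends, and the G1/S, G2/M, cholesterol and heat shock lists have no call.

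HOX genes, which give cells their place along the body axis, mostly fell. Of 38 listed, 16 were tested, with 9 called lower and 2 higher and a median log2 difference of -1.74. HOXB1 had 0, 0.228 and 0.348 CPM at 630-690 min, against 22.7, 37.8 and 46.7 CPM at 30-90 min, the largest fold among the genes named for falling. HOXB9 had 0 to 1.18 CPM at 630-690 min and 19.1 to 26.0 CPM at 30-90 min. HOXB4 fell to 5.28 ± 2.69 CPM at 630-690 min, against 31.1 ± 5.46 CPM at 30-90 min. The lower genes were HOXB1 to HOXB6, HOXB8, HOXB9 and HOXC4. HOXB7 had a log2 difference of -0.84 ± 0.22, under the 2-fold limit. HOXD4 rose to 9.30 ± 3.59 CPM at 630-690 min, against 1.47 ± 1.05 CPM at 30-90 min, and HOXD3 rose by less (log2 difference 1.31 ± 0.33).

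Genes of cell shape and contact changed in both directions. Of 21 adhesion and transition genes tested, 6 were called higher (5 without 630 min replicate 1) and 5 lower. SNAI2, a repressor of epithelial genes, rose to 472 ± 56.9 CPM at 630-690 min, against 74.8 ± 9.79 CPM at 30-90 min, while its relative SNAI1 fell. NCAM1, a neural and mesodermal adhesion molecule, rose to 244 ± 46.2 CPM at 630-690 min, against 34.9 ± 4.36 CPM at 30-90 min. The epithelial adhesion molecule EPCAM fell by 1.23 on the log2 scale. The cadherin CDH2 had 632 ± 44.3 CPM at 630-690 min and 582 ± 44.9 CPM at 30-90 min (adjusted p = 0.329). Of 16 ephrins and their receptors, 3 (18.8%) were called higher and 2 (12.5%) lower, beside 5.1% and 4.63% of all genes. The ligand EFNB2 rose to 264 ± 26.1 CPM at 630-690 min, against 42.1 ± 4.62 CPM at 30-90 min. The receptor EPHA2 fell to 22.7 ± 3.83 CPM at 630-690 min, against 110 ± 32.4 CPM at 30-90 min. Of 24 matrix genes, 3 were called higher (COL1A1, COL2A1 and LAMA5) and none lower. That is 12.5% higher, beside 5.1% of all genes. COL1A1 had 554 ± 67.5 CPM at 630-690 min and 170 ± 20.6 CPM at 30-90 min.

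Of 10 hedgehog pathway genes tested, 5 were called higher and none lower, with a median log2 difference of 1.29. The receptor and target PTCH1 had 430, 508 and 598 CPM at 630-690 min, against 106, 120 and 144 CPM at 30-90 min (log2 difference 2.06 ± 0.10). HHIP, a target that binds the ligand, had 6.82 to 21.0 CPM at 630-690 min and 0 to 1.52 CPM at 30-90 min. The ligand SHH had 2 counts in all at 630-690 min and 0.63 at 30-90 min, and IHH and DHH had none. Without 630 min replicate 1, 7 hedgehog genes were called higher, and with replicate 1 libraries alone, 2.

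Other signalling and stage lists held few or mixed calls. Of 11 retinoic acid genes tested, 9.09% were called in each direction, beside 5.1% higher and 4.63% lower of all genes: RDH10, a retinol dehydrogenase, was called higher, with 179 ± 23.6 CPM at 630-690 min and 17.8 ± 6.07 CPM at 30-90 min, and the receptor RXRG was called lower. Of 11 BMP and TGF-β targets, 2 (18.2%) were called lower, MSX1 and BAMBI, beside 4.63% of all genes, and none higher. ID1 had a log2 difference of -0.20 (adjusted p = 0.82). Of 15 immediate early genes, KLF4 and MYC were called higher and EGR3 and IER2 lower. That is 13.3% in each direction, beside 5.1% higher and 4.63% lower of all genes. Without 630 min replicate 1, 4 immediate early genes were called lower. KLF4 had 9.74 to 14.4 CPM at 630-690 min and 0 to 1.25 CPM at 30-90 min. Of 9 primitive streak genes, 5 were called higher and 3 lower. The lower ones were T, MIXL1 and EVX1, and the higher ones were MESP2, CER1, WNT8A, FGF4 and APLNR, the apelin receptor gene, which rose to 2349 ± 212 CPM at 630-690 min, against 669 ± 68.3 CPM at 30-90 min. IGF2, a fetal growth factor, was the 1 gene called of 8 in the IGF list (without 630 min replicate 1, 1 was also called lower), with 11.0 ± 6.21 CPM at 630-690 min and 2.33 ± 1.43 CPM at 30-90 min, which overlapped. Of 16 actin and YAP genes, 2 were called higher, ACTC1 and ANKRD1, which is 12.5% beside 5.1% of all genes. ANKRD1 was higher between the windows, with 50.5 CPM at 330 min and 10.1 CPM at 690 min. It lost its call with replicate 1 or replicate 2 libraries alone.

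Cell cycle genes did not reach the 2-fold limit. None of 20 G1/S genes and none of 20 G2/M genes was called. The G1/S genes had a median log2 difference of -0.39, and CDC6, which loads the replicative helicase, had 64.8 ± 4.45 CPM at 630-690 min and 110 ± 13.2 CPM at 30-90 min (log2 difference -0.75 ± 0.10, adjusted p = 3.06e-06). The G2/M genes had a median of -0.09. Of 13 CDK inhibitors and p53 targets, 4 (30.8%) were called higher and 1 (7.69%) lower, beside 5.1% and 4.63% of all genes. TP53INP1, a p53-inducible stress protein, had 571, 706 and 873 CPM at 630-690 min, against 32.7, 38.7 and 47.9 CPM at 30-90 min (log2 difference 4.19 ± 0.11). GADD45B and GADD45G rose with log2 differences of 3.60 ± 0.29 and 4.09 ± 0.32, whereas CDKN1A, the p21 gene, had one of -0.10 (adjusted p = 0.77).

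Among metabolic and stress genes, the glucose and lactate carriers SLC2A1 and SLC16A3 and the kinase PDK1, which limits pyruvate use in mitochondria, were the 3 of 21 glycolysis genes called, all lower. SLC2A1 had 34.5, 47.8 and 58.1 CPM at 630-690 min, against 216, 284 and 324 CPM at 30-90 min (log2 difference -2.58 ± 0.13). The list had a median log2 difference of -0.32, and the enzyme GAPDH had 1581 ± 132 CPM at 630-690 min and 2101 ± 100 CPM at 30-90 min, under the 2-fold limit. None of 22 genes of cholesterol and fatty acid synthesis and none of 11 heat shock genes was called. Of 25 ATF4 and endoplasmic reticulum stress genes, 5 were called lower (6 without 630 min replicate 1) and 2 higher. These are 20% and 8%, beside 4.63% and 5.1% of all genes. With replicate 1 or replicate 2 libraries alone, 2 were called lower. Of 15 hypoxia genes, 6.67% were called in each direction, near the shares of all genes: DDIT4, an inhibitor of the growth kinase mTOR, was called higher, with 84.5 ± 2.67 CPM at 630-690 min and 25.9 ± 5.98 CPM at 30-90 min, and STC2 was called lower. Of 10 circadian genes 4 were called lower (3 without 630 min replicate 1) and 1 higher. PER2 had 0 to 1.33 CPM at 630-690 min and 5.38 to 7.85 CPM at 30-90 min. ARNTL, the clock activator, was called lower at an adjusted p of 0.033 and lost its call in many other settings.

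Other genes were named for the size of their rise or fall. CER1, a secreted antagonist of nodal and BMP, had 50.1, 63.2 and 76.3 CPM at 630-690 min, against 0, 0.223 and 0.625 CPM at 30-90 min. TRPC6, a cation channel, had 25.4 to 54.4 CPM at 630-690 min and 0 to 1.33 CPM at 30-90 min. PGA3 and PGA5, which code for pepsinogen A, had 10.5 to 51.2 and 5.67 to 52.5 CPM at 630-690 min and were at 0 CPM in all 6 libraries at 30-90 min. Against 3 counts over those 6 libraries, PGA3 was at least 312.9-fold higher and PGA5 at least 280.5-fold higher. These are near-identical paralogs, as are CFC1B and CFC1, so the division of reads between them is uncertain. CFC1B, a nodal co-receptor gene, had 628 counts in all at 630-690 min and 2 at 30-90 min, a depth-adjusted ratio of 292.5 (95% counting interval 80.6 to 2421). Among the largest falls outside the groups above, CMKLR1, a chemerin receptor, had 0 to 0.914 CPM at 630-690 min and 18.4 to 36.5 CPM at 30-90 min. KRT71, a keratin known from hair roots, had 0 to 1.88 CPM at 630-690 min and 26.5 to 37.2 CPM at 30-90 min.

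Markers of other cell types were read as a check of the culture. SOX17 and FOXA2 of the endoderm had 1 and 3 counts in all at 630-690 min and 0 and 2 at 30-90 min. NKX2-5 of the heart and PAX8 of the kidney had 0 and 0 counts at 630-690 min and 0 and 3 at 30-90 min. SOX10 of the neural crest had 8 counts at 630-690 min and 0 at 30-90 min. CDH5 of the endothelium had 0 counts at 630-690 min and 1 at 30-90 min. The summed level of 17 neural genes was higher at 630-690 min (840 to 1070 CPM) than at 30-90 min (358 to 602 CPM). ZIC2, which mesoderm also expresses, had 399 ± 57.7 CPM at 630-690 min and 56.5 ± 7.98 CPM at 30-90 min. Of 11 tested, ZIC2 and OTX2 (18.2%) were called higher, beside 5.1% of all genes, and none lower. OTX2, a factor of the early forebrain, had 51.3 ± 8.63 CPM at 630-690 min and 25.8 ± 10.8 CPM at 30-90 min. Its log2 difference of 1.02 ± 0.22 was just over the 2-fold limit, and it lost its call in several other settings, DESeq2 among them. PAX6 had a log2 difference of -0.25 (adjusted p = 0.72), and SOX1 did not pass the count filter. The endothelium and blood list had a summed level of 35.9 to 52.6 CPM at 630-690 min and 106 to 153 CPM at 30-90 min, with LMO2 and FLT1 called lower of 4 tested. The lateral and cardiac list summed to 49.9 to 84.2 CPM at 630-690 min and 73.3 to 127 CPM at 30-90 min, with HAND1 called higher and BMP4 lower of 8 tested (2 lower without 630 min replicate 1). The endoderm list summed to 294 to 403 CPM at 630-690 min and 105 to 190 CPM at 30-90 min, with CXCR4 and CER1 called higher of 4 tested. The neural crest list summed to 471 to 662 CPM at 630-690 min and 95.1 to 147 CPM at 30-90 min, with SNAI2 and SOX9 called higher and NGFR lower of 3 tested; SNAI2 and SOX9 are also genes of mesoderm. EYA1 was the 1 gene called of 2 tested in the intermediate mesoderm list. In the trophoblast list HAND1 was called higher and CDX2 lower of 3 tested, and CGA and CGB had 0 counts in both windows. The part of such cells in the results was not tested. Of 12 pluripotency genes tested, 3 were called lower and none higher. POU5F1 fell to 90.3 ± 7.76 CPM at 630-690 min, against 211 ± 13.0 CPM at 30-90 min, and NANOG did not pass the count filter.

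All 46 course libraries showed when the net changes came about. For each called gene the first time was taken from which its level, smoothed over 3 time points on the log2 scale, stayed past the midpoint between the window means. This is a description with no test. Genes called higher passed their midpoint at a median of 330 min (quartiles 240 and 510 min), and genes called lower at 360 min (quartiles 240 and 480 min). Up to 180 min, 14.3% of the higher and 15.3% of the lower genes had passed it. Early among the named falling genes were DUSP6 at 120 min and SPRY4 and SP5 at 150 min. T followed at 210 min, HOXB1 at 240 min, MSGN1 at 270 min, and TBX6 and HES7 at 480 min. Among rising genes HEY1 passed it at 150 min, MESP2 and FOXC2 at 180 min, RIPPLY2 at 210 min, TCF15 at 240 min, MEOX1 at 270 min, PCDH8 at 330 min, RIPPLY1 at 360 min and PAX3 at 510 min. On this scale a gene that starts near 0 passes its midpoint at a low level: MEOX1 averaged 29.2 CPM at 270 min, 101 CPM at 420 min and 299 CPM at 600 min. RIPPLY2 was highest between the windows, at 142 CPM at 570 min, as was MESP2 with 47.6 CPM at 540 min. FGF4 reached 53.2 CPM at 330 min and had come down to 10.7 CPM at 690 min.

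**Figure D4:**
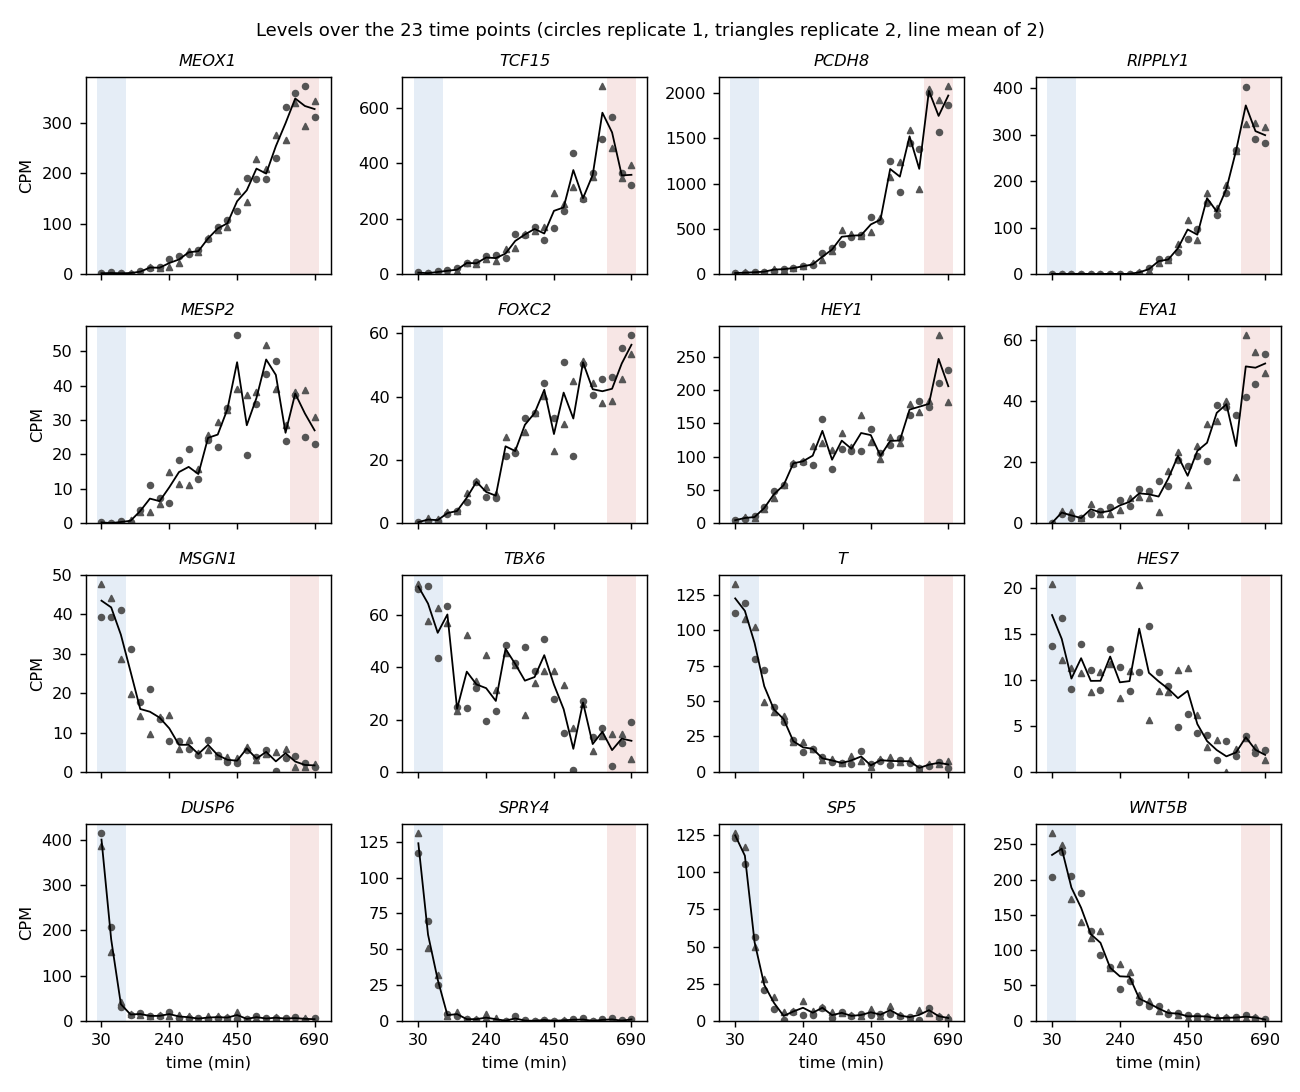
CPM of 16 genes at the 23 time points (circles replicate 1, triangles replicate 2, line their mean), with the windows 630-690 min and 30-90 min shaded. DUSP6 has left its level of about 401 CPM at 30 min by 120 min (13.9 CPM), and MEOX1 climbs to 348 CPM at 630 min.

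The daily series offered separate libraries of the same line, in which Day3, in somite medium, was set against Day2, in presomitic medium. Of 12765 genes tested there, 13.1% were called, 9.03% higher and 4.03% lower on Day3. Of the 563 genes called higher at 630-690 min and tested in the days, 242 (43%) were called higher on Day3 and 7 (1.24%) lower, beside 9.32% and 4.1% of all genes tested in both. These 242 made up 22.9% of the genes called higher on Day3 among those tested in both. Of 506 genes called lower at 630-690 min, 159 (31.4%) were called lower on Day3 and 5 (0.988%) higher, and the 159 made up 34.3% of the genes called lower on Day3 among those tested in both. MEOX1 and TCF15 rose there too, MEOX1 with 169 ± 45.5 CPM on Day3 and 0.119 ± 0.207 CPM on Day2 (SD, n = 3 each), and T and MSGN1 fell. Daily levels are CPM scaled over the 12 daily libraries, a separate scaling from that of the course.

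Border genes differed among themselves in the days. PCDH8 had 32.3 ± 15.9 CPM on Day3 and 34.3 ± 15.6 CPM on Day2 (adjusted p = 0.933). In the course it had 1952 ± 196 CPM at 630-690 min and 17.5 ± 5.80 CPM at 30-90 min. MESP2 averaged 0.117 CPM on Day3 and was at 0 CPM in all 3 libraries of Day2. It did not pass the count filter there, beside 32.9 ± 7.12 CPM at 630-690 min. RIPPLY1 was called higher on Day3 too (adjusted p = 3.09e-05), with 69.8 ± 43.6 CPM on Day3 and 0 CPM on Day2, beside 330 ± 45.9 CPM at 630-690 min. The 12 genes with opposite calls included SOX9, FGF4, DUSP5, CXCR4 and RND3, all higher at 630-690 min and lower on Day3. SOX9, the factor of cartilage precursors, had a log2 difference of 2.08 between 630-690 and 30-90 min and of -1.20 between Day3 and Day2.

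**Figure D5:**
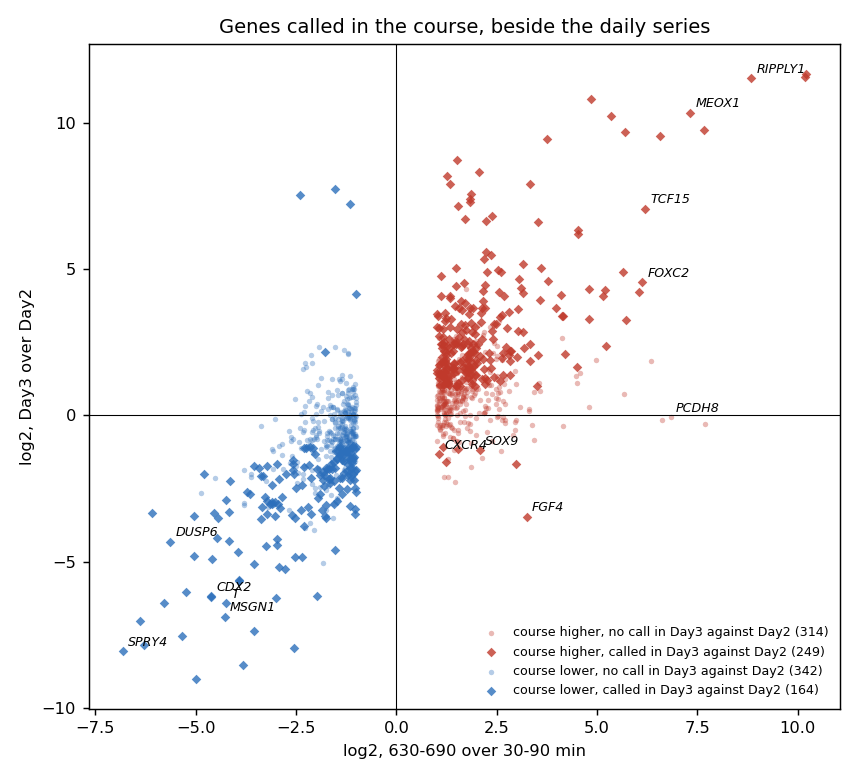
Log2 difference between Day3 and Day2 (vertical) against that between 630-690 and 30-90 min (horizontal) for genes called higher (red) or lower (blue) in the course; diamonds are genes also called between the days and circles those that were not. MEOX1 is high on both axes, whereas PCDH8, at 6.83 on the horizontal axis, lies at -0.07 on the vertical one.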

How the data were processed

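The authors deposited expected counts (estimates, often not whole) for 19084 genes, mitochondrial ones left out, together with TPM values that the authors scaled to 1000000 per library, as the deposited values show. Libraries were made with LM-seq, per the labels' protocols. The submitters' processing notes name Bowtie 0.12.2, hg19 and mm8. Counting program, annotation and use of strand: not given in the sources used here. Antisense and overlapping genes can therefore share reads. No column lacked a sample.

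The rounded counts of the 12 libraries went into edgeR 4.0.16 under R 4.3.3 (TMM, filterByExpr, quasi-likelihood test), with window as the only term and Benjamini-Hochberg adjustment. SEs of log2 differences come from limma 3.58.1 on log2 CPM (prior count 2). Day3 against Day2 was fitted on all 12 daily libraries. Scripts were tested on simulated data.

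The 37 gene lists, the members and the tests were chosen with earlier results of these data known. Genes named by rule are MEOX1, TCF15 and PCDH8; the 12 genes of largest fold in each direction with a window mean of at least 20 CPM and no overlap; up to 4 called members with the smallest p per list; and 14 stage and pathway genes. Other list members in the text were chosen after their values were seen. Some genes were left out of the lists and are not reported here. Other settings covered scaling, filter, tool, TPM scale, depth, replicate block and left-out libraries or times. Promoters are from the RefSeq table, in another build than the counts.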

Additional observations from a re-analysis of the deposited data

Results flagged for a closer look

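Among 108 named genes, 207 windows of 6 libraries were examined for 1 library lying apart from the other 5, and in 7 its gap exceeded Dixon's 95% critical value. Chance gives about 1 in 20 such groups.

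In the windows at 630-690 min, PGA5 had 5.67 CPM in 630 min replicate 1, against 25.1 to 52.5 CPM in the other libraries, and RDH10 had 138 CPM in the same library, against 176 to 202 CPM. EDAR, a receptor of the ectodysplasin pathway, had 2.93 CPM in 690 min replicate 1, against 0 to 0.348 CPM, and NGFR, a nerve growth factor receptor, had 1.99 CPM in 660 min replicate 1, against 4.94 to 8.01 CPM.

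In the windows at 30-90 min, 2 genes were low in 90 min replicate 1. HOXB1 had 22.7 CPM there, against 36.1 to 46.7 CPM in the other libraries, and ALDH1A2 had 239 CPM, against 296 to 313 CPM. RIPPLY1 had 0 CPM in the same library, against 0.625 to 1.01 CPM, but 3 counts there equal 0.915 CPM, so this value cannot be told from the others. The 90 min libraries are the latest of that window, and why these values lie apart was not tested.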

How the results depend on the processing

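Over 28 other settings the number of genes called ran from 916 (replicate 1 libraries alone) to 1386 (no filter on low counts), beside 1110, and no gene called in the 12 libraries was called in the opposite direction. Without 1 library, 1091 to 1200 genes were called, 576 to 628 higher and 490 to 572 lower, and 42.2% to 43.5% of the higher and 30.7% to 33.1% of the lower genes had the same call on Day3 against Day2. DESeq2 1.42.0 called 1140 genes, and log2(TPM + 1) in limma called 942. The replicate number as a block gave 1109 calls, of which 1097 were shared. Differences between replicates correlated at -0.07 to 0.056 between time points, so no common shift of same-numbered libraries was seen. Whether same-numbered libraries share a culture or batch is not in the labels. The share of lower genes also called lower on Day3 was 31.4%, and moved to 35.9% without the 30 min libraries, 37.2% with replicate 1 alone and 36.9% with replicate 2 alone; the cause was not tested. Of the 105 named genes with a call, 92 kept it in all 28 settings, 1 (EGR3) kept it in those that tested it, none turned its direction, and 12 lost it in at least 1: ARNTL, TDGF1, OTX2, CXCR4, NGFR, SLC7A11, ANKRD1, STC2, ASNS, FGF2, GLI2 and BOC. In a single library, a level of 0 cannot be told from levels up to about 1 CPM at this depth. Over the 6 libraries of a window lower levels can be told from 0: RIPPLY1 averaged 0.649 CPM at 30-90 min, from 18 counts.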

Other observations

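A comparison of the ends leaves out genes that moved and came back. With a window of 300 to 420 min (10 libraries) added after seeing the data, in a fit of all 46 course libraries, 47 of 13653 genes tested (0.344%) were called higher there than in both end windows, and 23 (0.168%) lower than in both. Of these, 41 and 15 had no call between 630-690 and 30-90 min.

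HEYL, a Notch-responsive repressor, had 23.9 ± 3.49 CPM at 30-90 min, 178 ± 23.4 CPM at 300-420 min and 35.1 ± 7.82 CPM at 630-690 min (SD, n = 6, 10 and 6). In the same order of time, ATF3, a stress-induced factor, had 14 ± 7.06, 69.9 ± 9.47 and 26.6 ± 6.75 CPM. CYR61, a matrix protein and YAP target, had 29.5 ± 8.69, 82.0 ± 13.0 and 31.2 ± 10.5 CPM. HSPB8, a small heat shock protein, had 14.3 ± 5.73, 54.0 ± 3.96 and 17.5 ± 2.11 CPM. FGF4, which was also called higher at 630-690 than at 30-90 min, had 1.42 ± 0.790, 44.9 ± 9.60 and 13.3 ± 3.03 CPM. These genes were picked for their values in the same libraries.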
